A study of Mus musculus with 6 samples.

Results

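The genes described here are the matrix metalloproteinases (MMPs), the ADAMTS proteases, the ADAMTS-like proteins and the tissue inhibitors of metalloproteinases (TIMPs) of mouse ear skin. They were taken by symbol from the deposited read-count table, and 49 of its 18422 genes matched. Of these, 41 had 10 or more counts in at least 3 of the 6 libraries and are the members: 15 MMP, 17 ADAMTS, 5 ADAMTS-like and 4 TIMP genes. RNA was sequenced in 3 libraries of ecko ear skin, from mice in which Vegfr2 had been deleted in endothelial cells, and 3 of littermate controls. Both groups had received tamoxifen, the drug that starts the deletion, and skin was taken at postnatal day 21. The sources used here do not name the Cre line, the alleles of the controls or which of the study's tamoxifen schedules these mice had.

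The MMPs are secreted or membrane-bound enzymes that use a zinc ion to cut collagens, elastin and other proteins of the extracellular matrix. They are made as inactive precursors, and the TIMPs block them once active. The ADAMTS enzymes are secreted relatives that cut proteoglycans such as aggrecan and versican, trim procollagens so that collagen fibrils can form, or cut other matrix proteins. The ADAMTS-like proteins share the non-catalytic domains of the ADAMTS family and lack a protease domain, and some of them lie on fibrillin microfibrils. In skin these genes are active mainly in fibroblasts, and some are made by blood cells, keratinocytes, cartilage cells or vessel cells.

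Libraries held 17423523 to 18054700 counts in ecko and 17255419 to 17594650 in controls, and 14866 genes were deep enough to be tested. Kdr, the gene of VEGFR2, had 58, 37 and 42 counts in ecko 1 to 3 and 475, 511 and 595 in controls 1 to 3. Reads from Y-linked genes placed libraries 1 and 2 of each group as male and library 3 of each group as female. The summed level of 11 endothelial markers was lower in every ecko library, at 311 to 318 CPM (counts scaled to a common library total), than in every control, at 455 to 494 CPM. Of the 11, 8 fell (72.7%, against 1.08% of all genes). Markers of fibroblasts and basal keratinocytes were abundant in all 6 libraries. Cartilage markers other than Matn1, which had 1 count in control 1 and 0 in the rest, were present too, as fits an ear sample. Whole tissue was sequenced, so fewer cells of a type and less RNA per cell cannot be told apart. The labels do not say whether each library is a separate animal. By the sex read, library 3 of each group came from other mice than libraries 1 and 2. The spread behind each p-value is that between these libraries and may be technical in part.

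One member changed. Adamts14, which encodes a procollagen N-proteinase, fell, and no member rose (edgeR quasi-likelihood test over all genes, Benjamini-Hochberg adjusted p under 0.05). Thus 1 of the 41 was called, where 1.76% of all genes tested were: 1 fell, against 1.08% of all genes, and 0 rose, against 0.686%. At an unadjusted edgeR p under 0.05, 4 members were higher and 6 lower in ecko skin, together 24.4% of the members against 15.4% of all genes. Adamts14 was also called lower by DESeq2 and limma-voom; DESeq2 called 1 member higher, Adamts1, and limma-voom called 0 higher. The median log2 fold change was -0.02 over the members and 0.00 over all genes, with 17 members above 0 and 24 below. Ecko and control values did not overlap in 11 members, or 26.8%, against 21% of all genes. Of these members 4 were higher in ecko, against 10.2% of all genes, and 7 lower, against 10.8%. All members lay between -0.36 and 0.65 on the log2 scale, and the 95% interval of 27 of them stayed within 0.5 log2 units of 0.

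**Figure D1:**
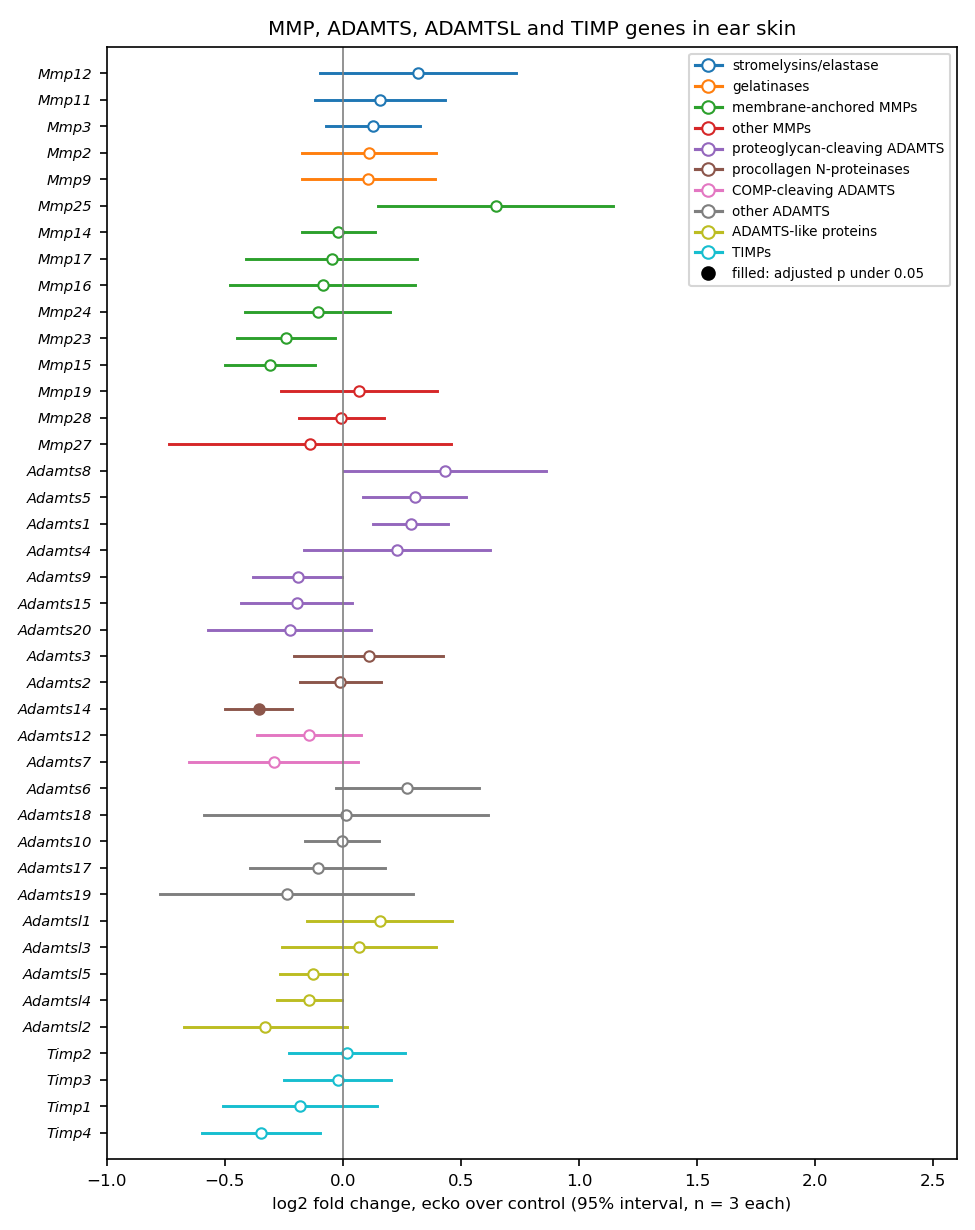
Log2 fold change of ecko over control skin for the 41 genes, grouped by role, with the edgeR 95% interval (n = 3 each); positive values are higher in ecko. Adamts14 is the one filled point, and most intervals cross 0.

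The levels of the members spanned a wide range. Compared per length, as CPM per kilobase of exon (RPKM), Mmp2, Timp2 and Timp3 together held most of the signal, at 23.7%, 22.7% and 20.5% of the summed RPKM of the members over all 6 libraries. Mmp2 had 236 ± 6.39 RPKM in ecko and 218 ± 42.9 RPKM in control skin (SD, n = 3 each). The next were Mmp14, Adamts1 and Adamts2, with mean levels over the 6 libraries of 56.8, 42.4 and 27.3 RPKM. Adamts19 and Adamts18 were the lowest, at 0.287 and 0.315 RPKM. The top 3 lay within each other's spread in control skin, where Timp2 had 217 ± 34.2 and Timp3 198 ± 25.0 RPKM (SD, n = 3 each).

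**Figure D2:**
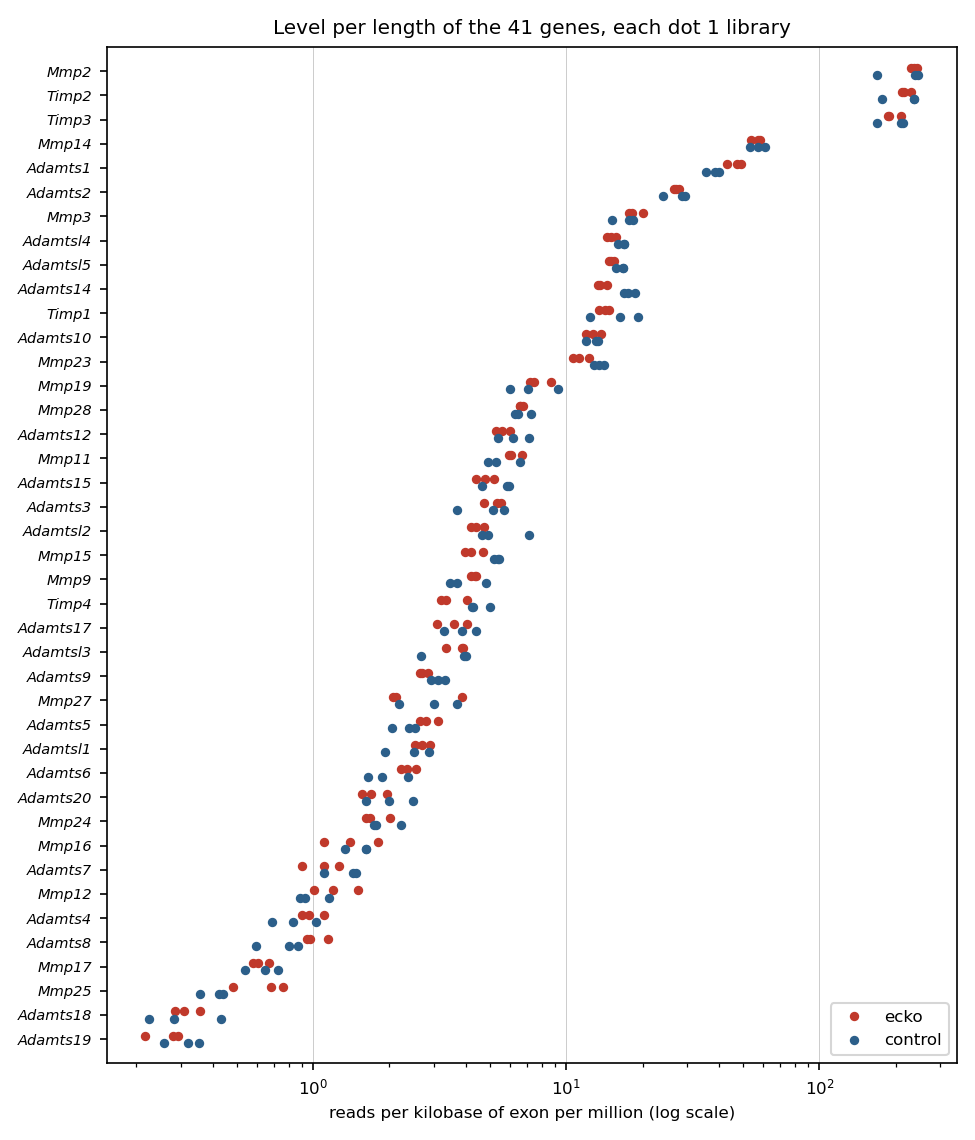
Level of each of the 41 genes per length (RPKM, log axis), ordered by the mean over all libraries, with each dot 1 library. Mmp2, Timp2 and Timp3 stand apart at the top, and in each of these the lowest dot is a control.

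The procollagen N-proteinases remove the amino-terminal propeptide of fibrillar procollagens, ADAMTS2 being the enzyme lost in a form of Ehlers-Danlos syndrome with fragile skin. Adamts14 has Entrez ID 237360 and spans chr10:61197112-61273419 on the minus strand (GRCm38.p6). Its level was 75.4, 69.2 and 70.7 CPM in ecko 1 to 3, against 96.7, 91.2 and 87.9 CPM in controls 1 to 3. All 3 ecko libraries lay below all 3 controls. The mean was 71.8 ± 3.27 CPM in ecko and 91.9 ± 4.45 CPM in control skin (SD, n = 3 each), a log2 fold change of -0.36 (SE 0.06, 95% interval -0.50 to -0.22, edgeR adjusted p = 0.0253). The call rested on all libraries but 1: it ended without ecko 1, ecko 2 or ecko 3 (edgeR adjusted p = 0.0578, 0.123 and 0.0959) and without control 1 or control 2 (0.0607 and 0.0696), held without control 3 (0.0198), and ended in the male libraries alone (0.0695). Over all 16 alternatives the adjusted p ranged from 0.00165 to 0.123. The log2 fold change stayed between -0.40 and -0.32 when any 1 library was left out.

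The other members of this group did not pass. Adamts2 had 193, 202 and 198 CPM in ecko 1 to 3, against 176, 208 and 213 CPM in controls 1 to 3, so the ecko values lay inside the control range. Its log2 fold change was -0.01 (95% interval -0.18 to 0.16, edgeR adjusted p = 0.965). Adamts3, which acts on procollagen in cartilage and on the lymphatic growth factor VEGF-C, had 27.6 ± 2.19 CPM in ecko and 25.6 ± 5.37 CPM in control skin (SD, n = 3 each), a log2 fold change of 0.11 (95% interval -0.21 to 0.42, edgeR adjusted p = 0.786). Within each library, the ratio of Adamts14 to Adamts2 CPM was 0.391, 0.342 and 0.358 in ecko 1 to 3, against 0.551, 0.438 and 0.412 in controls 1 to 3. The ratio was lower in all 3 ecko libraries, with a two-sided exact permutation p of 0.1, the smallest that 3 against 3 allows. It was one of 6 ratios chosen after the values were seen, and its adjusted p over the 6 was 0.15. The ratio of Adamts14 to Adamts3 also did not overlap, at 2.62 ± 0.338 in ecko and 3.74 ± 1.04 in control skin (SD, n = 3 each, exact permutation p = 0.1), with ecko 1 just below control 2. Without control 1 the log2 difference in ratio shrank, to -0.27 against -0.49 with all libraries for Adamts14 to Adamts3, and to -0.23 against -0.35 for Adamts14 to Adamts2. Both ratios hold the Adamts14 values behind the call above, and so are not separate evidence for it.

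The promoters of the 3 procollagen N-proteinase genes are printed because one of the 3 fell while the other two did not pass, and that of Adamts1 because it was the gene with the smallest p among those higher in ecko. Each runs from 250 bases before to 50 bases after an annotated start, 5′ to 3′ on the strand of the gene, from RefSeq in GRCm38.p6. For Adamts14, Adamts2 and Adamts1 this start is the outer end of the annotated gene. The Adamts3 window is set at an internal start and lies inside the gene, which reaches chr5:89883668. Capitals mark the GC box (GGGCGG), the hypoxia response cores ACGTG and GCGTG, and the AP-1 site TGANTCA, each searched on both strands, with abutting or overlapping matches run together. The window of Adamts14 lies on the minus strand at chr10:61273370-61273669, that of Adamts2 on the plus strand at chr11:50601835-50602134, that of Adamts3 on the minus strand at chr5:89883285-89883584 and that of Adamts1 on the minus strand at chr16:85803064-85803363.
Adamts14: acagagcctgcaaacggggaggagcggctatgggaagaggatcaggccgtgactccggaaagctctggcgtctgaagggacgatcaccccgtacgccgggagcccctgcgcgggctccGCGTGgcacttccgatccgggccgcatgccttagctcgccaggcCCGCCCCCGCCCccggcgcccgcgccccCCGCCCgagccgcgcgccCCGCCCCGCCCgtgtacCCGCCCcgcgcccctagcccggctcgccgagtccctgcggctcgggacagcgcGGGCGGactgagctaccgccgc
Adamts2: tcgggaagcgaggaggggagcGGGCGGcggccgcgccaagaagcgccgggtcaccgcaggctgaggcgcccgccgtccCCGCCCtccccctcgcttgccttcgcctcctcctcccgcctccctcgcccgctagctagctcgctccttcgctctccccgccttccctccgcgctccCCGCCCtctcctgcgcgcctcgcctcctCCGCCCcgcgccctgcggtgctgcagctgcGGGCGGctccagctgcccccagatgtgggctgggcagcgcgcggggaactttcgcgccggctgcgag
Adamts3: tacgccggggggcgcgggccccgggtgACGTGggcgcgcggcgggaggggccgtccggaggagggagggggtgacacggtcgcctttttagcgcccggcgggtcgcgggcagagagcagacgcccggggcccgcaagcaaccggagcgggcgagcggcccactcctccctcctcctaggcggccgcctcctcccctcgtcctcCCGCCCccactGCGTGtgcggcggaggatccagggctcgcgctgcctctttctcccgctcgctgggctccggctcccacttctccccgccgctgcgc
Adamts1: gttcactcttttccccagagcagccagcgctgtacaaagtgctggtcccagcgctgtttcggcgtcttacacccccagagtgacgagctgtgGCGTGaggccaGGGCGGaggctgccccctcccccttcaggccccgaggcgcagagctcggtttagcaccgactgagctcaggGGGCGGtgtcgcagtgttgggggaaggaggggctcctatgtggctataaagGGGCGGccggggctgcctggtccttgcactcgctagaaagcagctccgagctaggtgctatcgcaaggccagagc
The GC box, bound by factors of the Sp family, occurred 7 times in the Adamts14 window, 5 times in that of Adamts2, 1 time in that of Adamts3 and 3 times in that of Adamts1. Windows were at hand for 27 of the 41 members, 29 windows in all. The GC box was found in 21 of these 29, and in 35.7% of all 32851 promoter windows. The core GCGTG was found in 13 of the 29 and 32.4% of all windows, and ACGTG in 7 of the 29 and 19.6%. The difference between these shares was not tested. The AP-1 site was found in the windows of 2 members, Mmp3 and Mmp12, and in 7.81% of all windows. These are matches of letters in a short window, and binding was not measured.

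The proteoglycan-cleaving group held the members closest to a call in the other direction. Adamts1 (Entrez 11504, chr16:85793827-85803113) encodes an enzyme that cuts aggrecan and versican and can bind VEGF-A. It had 231, 211 and 239 CPM in ecko 1 to 3, against 174, 189 and 196 CPM in controls 1 to 3, and the groups did not overlap. Its log2 fold change was 0.29 (SE 0.07, 95% interval 0.13 to 0.44), and the edgeR adjusted p of 0.0896 missed the threshold. DESeq2 called it (adjusted p = 0.0154), and over all alternatives its adjusted p ranged from 0.0154 to 0.284. Adamts5, the main aggrecanase of mouse cartilage, lies 55.0 kb from Adamts1 on the same strand. It had 28.6, 30.2 and 33.7 CPM in ecko 1 to 3, against 22.1, 27.1 and 25.7 CPM in controls 1 to 3, again without overlap (log2 fold change 0.30, SE 0.10, edgeR adjusted p = 0.182). Control 1 was the lowest library for both genes. Without it the log2 fold change was 0.24 for Adamts1 (edgeR adjusted p = 0.164) and 0.23 for Adamts5 (edgeR adjusted p = 0.308).

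**Figure D3:**
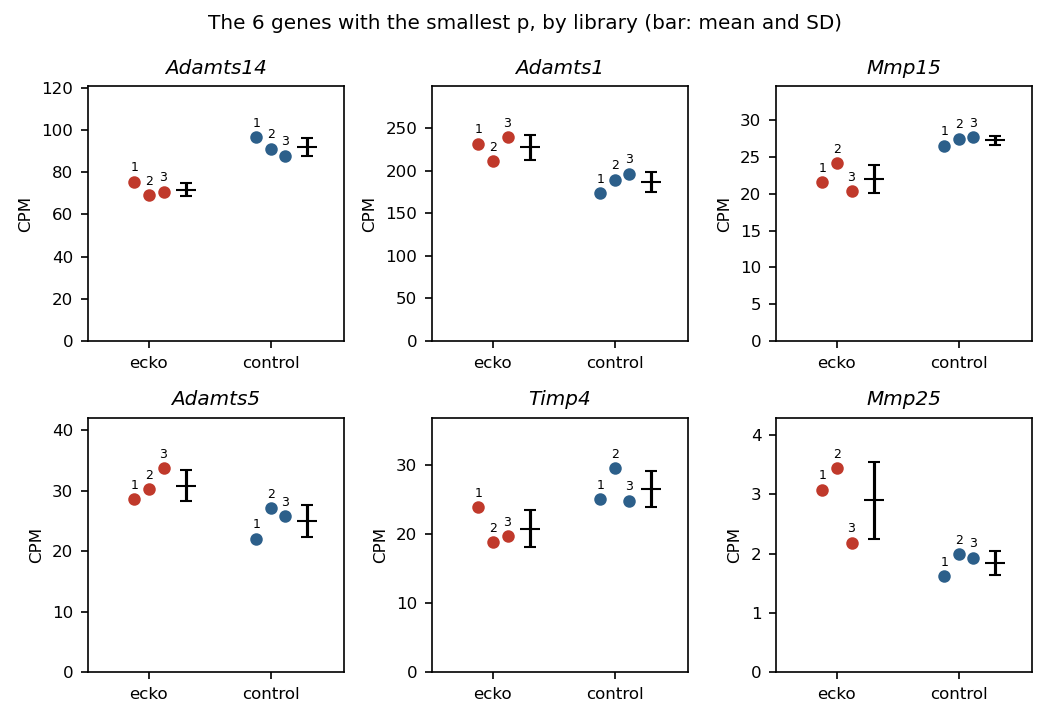
CPM in each library (numbered points) with the mean and SD beside them, for the 6 genes with the smallest p, ecko left and control right. The groups are separate in all 6 genes, and in Mmp25 and Timp4 a library of one group lies near the other group.

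Adamts8 and Adamts15 form another neighbouring pair, 20.1 kb apart on chromosome 9 and on opposite strands. Adamts8, whose product also limits vessel growth in assays, had 4.17, 3.43 and 3.52 CPM in ecko 1 to 3, against 3.18, 2.90 and 2.15 CPM in controls 1 to 3. The groups did not overlap (log2 fold change 0.43, SE 0.19, edgeR adjusted p = 0.317). An antisense gene shares 13.5% of its exon bases, and without strand information its reads cannot be told apart from those of Adamts8. Adamts15 had 28.2, 30.8 and 26.1 CPM in ecko 1 to 3, against 27.5, 34.7 and 35.3 CPM in controls 1 to 3, and control 1 lay within the ecko range (log2 fold change -0.20, SE 0.11, edgeR adjusted p = 0.419). Within libraries, the ratio of Adamts8 to Adamts15 overlapped between groups (exact permutation p = 0.2).

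The remaining genes of this group were Adamts9, Adamts20 and Adamts4. Adamts9, which cuts versican and is needed during heart and eye development, had 21.6, 21.1 and 22.9 CPM in ecko 1 to 3, against 26.6, 25.0 and 23.3 CPM in controls 1 to 3. Its groups were separate but close, with a log2 fold change of -0.19 (SE 0.08, edgeR adjusted p = 0.313), and 5.29% of its exon bases are shared with an opposite-strand gene. Adamts20, the gene of the belted coat spotting mutation in mice, had a log2 fold change of -0.23, and Adamts4, another aggrecanase, of 0.23; both overlapped between groups. The summed CPM of the 7 genes was 315 to 347 in ecko and 277 to 301 in control libraries, a sum of which Adamts1 alone made up the greater part.

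The MMPs that cut basement membrane and denatured collagen, the gelatinases, had similar levels in both groups. Mmp2, a fibroblast gelatinase, had 726, 705 and 745 CPM in ecko 1 to 3, against 519, 757 and 738 CPM in controls 1 to 3. Control 1 was low and the other 5 libraries lay close together. The log2 fold change was 0.11 (95% interval -0.17 to 0.40, edgeR adjusted p = 0.746), and -0.04 without control 1. Mmp9, a gelatinase of leukocytes and wounded epidermis, had 13.8, 13.4 and 13.9 CPM in ecko 1 to 3, against 11.8, 11.04 and 15.3 CPM in controls 1 to 3. The ecko values lay inside the control range (log2 fold change 0.11, 95% interval -0.18 to 0.39, edgeR adjusted p = 0.754).

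The stromelysins and the metalloelastase all had fold changes above 0 and none passed. Mmp3 (stromelysin-1), which has a broad range of substrates and activates other MMPs, had 31.8, 36.2 and 32.6 CPM in ecko 1 to 3, against 27.2, 33.0 and 31.9 CPM in controls 1 to 3 (log2 fold change 0.13, edgeR adjusted p = 0.553). Mmp11 (stromelysin-3), a fibroblast gene of remodelling tissue, had 15.4, 13.6 and 13.9 CPM in ecko 1 to 3, against 12.1, 11.2 and 15.03 CPM in controls 1 to 3 (log2 fold change 0.16, edgeR adjusted p = 0.606). In both genes the groups overlapped. Mmp12, the elastase of macrophages, had 4.91 ± 0.999 CPM in ecko and 3.94 ± 0.587 CPM in control skin (SD, n = 3 each; log2 fold change 0.32, edgeR adjusted p = 0.462). The summed level of 11 macrophage markers, none of which passed, was 1119 to 1157 CPM in ecko and 710 to 1107 CPM in control libraries; its part in the Mmp12 values was not tested.

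Several of these genes lie in one cluster on chromosome 9, from Mmp13 (start 7272514) to Mmp27 (end 7581885). Of the 8 matched genes found there, Mmp3, Mmp12 and Mmp27 were members. Mmp27 had 4.67 ± 1.77 CPM in ecko and 5.15 ± 1.301 CPM in control skin (SD, n = 3 each). It was highest in the 2 female libraries, at 6.71 CPM in ecko 3 and 6.41 CPM in control 3. The collagenase genes fell below the count rule: Mmp13 had 9, 14 and 4 counts in ecko 1 to 3 and 6, 4 and 6 in controls 1 to 3, and Mmp8, the neutrophil collagenase, had 10, 3 and 9 counts in ecko 1 to 3 and 2, 6 and 8 in controls 1 to 3. Mmp1a had 0 counts in all 6 libraries, which allows up to 3 counts per library, or 0.166 to 0.174 CPM. Mmp10 had at most 4 counts and Mmp1b at most 2. Outside the cluster, Mmp21 had 0 counts, Adamts13, which cuts von Willebrand factor, at most 8 and Adamts16 at most 12.

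Of the 7 membrane-anchored MMPs, 1 had a fold change above 0 and 6 below, and none passed. Mmp14 (MT1-MMP), which cuts collagen at the cell surface and activates MMP2 together with TIMP2, had 225, 243 and 239.8 CPM in ecko 1 to 3, against 222, 239 and 256 CPM in controls 1 to 3. The groups overlapped throughout, with a log2 fold change of -0.02 (95% interval -0.17 to 0.13, edgeR adjusted p = 0.931). Mmp15 (MT2-MMP) had 21.6, 24.1 and 20.4 CPM in ecko 1 to 3, against 26.6, 27.5 and 27.7 CPM in controls 1 to 3. Each ecko library lay below each control, and the edgeR adjusted p of 0.126 missed the threshold (log2 fold change -0.31, SE 0.09). Mmp23 had 16.1, 15.3 and 17.6 CPM in ecko 1 to 3, against 19.3, 20.2 and 18.4 CPM in controls 1 to 3, also without overlap (log2 fold change -0.24, SE 0.09, edgeR adjusted p = 0.253).

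Mmp25 (leukolysin), an MMP of neutrophils held by a lipid anchor, had the highest log2 fold change of the members and low counts. It had 53, 62 and 39 counts in ecko 1 to 3 and 28, 35 and 34 in controls 1 to 3, or 3.07, 3.43 and 2.18 CPM in ecko against 1.62, 1.99 and 1.93 CPM in controls. Both male ecko libraries were high and the female one lay just above the controls (log2 fold change 0.65, SE 0.22, 95% interval 0.15 to 1.14, edgeR adjusted p = 0.207). The summed level of 9 neutrophil markers was 102, 170 and 30.3 CPM in ecko 1 to 3 and 30.9, 24.4 and 40.7 CPM in controls 1 to 3. Most of that sum came from S100a8 and S100a9, which stressed keratinocytes also make. The neutrophil marker Ly6g had 2 counts in ecko 3 and 0 in the other 5 libraries, and the neutrophil receptor gene Cxcr2 had 175, 133 and 107 counts in ecko 1 to 3 and 80, 88 and 73 in controls 1 to 3 (edgeR adjusted p = 0.0961). Of the 9 markers, 4 were deep enough to be tested, all 4 above 0 and 0 called. The untested markers went both ways. Ltf had 8, 5 and 2 counts in ecko 1 to 3 and 4, 19 and 21 in controls 1 to 3. Camp had 1, 5 and 1 counts in ecko against 4, 5 and 5 in controls. Retnlg had 8, 8 and 8 against 1, 7 and 2, and Ngp 3, 5 and 2 against 0, 4 and 1. The part of neutrophils in the Mmp25 values was not tested. Mmp16, Mmp17 and Mmp24 had log2 fold changes of -0.09, -0.05 and -0.11 and overlapped; 14.8% of Mmp24 exon bases are shared with an opposite-strand gene.

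Among the other MMPs, Mmp28 (epilysin), a keratinocyte MMP, had 24.7, 25.5 and 24.8 CPM in ecko 1 to 3, against 27.2, 23.7 and 24.3 CPM in controls 1 to 3 (log2 fold change -0.01, 95% interval -0.19 to 0.17). Mmp19 had 24.9, 30.0 and 25.7 CPM in ecko 1 to 3, against 20.7, 32.0 and 24.3 CPM in controls 1 to 3 (log2 fold change 0.07, 95% interval -0.26 to 0.40). Both genes share exon bases with genes on the other strand, 22.9% with Tmem198b for Mmp19 and 12.3% with 1700020L24Rik for Mmp28. Ecko and control values overlapped in both.

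The TIMPs showed no passing change. Timp2, which inhibits MMP2 and takes part in its activation, had 785, 800.3 and 853 CPM in ecko 1 to 3, against 657, 880 and 873 CPM in controls 1 to 3 (log2 fold change 0.02, 95% interval -0.23 to 0.26, edgeR adjusted p = 0.964). Timp3, which binds to the matrix and also inhibits ADAMTS enzymes and VEGFR2 signalling, had 890.0, 879 and 992 CPM in ecko 1 to 3, against 799, 1011 and 995 CPM in controls 1 to 3 (log2 fold change -0.02, 95% interval -0.25 to 0.20, edgeR adjusted p = 0.948). In both genes control 1 was the lowest library, and the log2 fold changes without it were -0.11 for Timp2 and -0.12 for Timp3. Timp1, which inflammation induces, had 13.0, 12.6 and 11.9 CPM in ecko 1 to 3, against 14.5, 17.1 and 11.1 CPM in controls 1 to 3 (log2 fold change -0.18, edgeR adjusted p = 0.625). The groups overlapped, and the log2 fold change was -0.029 without control 2 and -0.33 without control 3.

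Timp4, a TIMP abundant in heart and fat, had 23.9, 18.9 and 19.7 CPM in ecko 1 to 3, against 25.1, 29.5 and 24.9 CPM in controls 1 to 3. All ecko libraries were lower, ecko 1 only just, and the adjusted p missed the threshold (log2 fold change -0.35, SE 0.11, edgeR adjusted p = 0.184). In the same libraries the summed level of 9 adipocyte markers was 452 to 544 CPM in ecko and 587 to 750.2 CPM in control libraries. Of the 9, 4 fell (44.4%, against 1.08% of all genes). The fold change was below 0 for 8 of them and above 0 for 1, Lep (log2 fold change 0.88, edgeR adjusted p = 0.231). The part of this summed level in the Timp4 values was not tested. Timp1, Timp3 and Timp4 each lie within a synapsin gene on the opposite strand. Their exons share no base with Syn1 and Syn3, and 1.53% of Timp4 exon bases are shared with Syn2.

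The balance of Mmp2 to its inhibitors was also read within each library. Control 1 was low for all 3 genes by unequal amounts, at 0.707 of the mean of the other 5 libraries for Mmp2, 0.783 for Timp2 and 0.838 for Timp3. The ratio of Mmp2 to Timp2 CPM was 0.924, 0.881 and 0.873 in ecko 1 to 3, against 0.791, 0.861 and 0.844 in controls 1 to 3. It was higher in all 3 ecko libraries by a small margin (exact permutation p = 0.1, the smallest possible, and 0.15 adjusted over the 6 ratios). The ratio of Mmp2 to Timp3 was 0.790 ± 0.0343 in ecko and 0.713 ± 0.0549 in control skin (SD, n = 3 each, exact permutation p = 0.1), with 0.751 in ecko 3 close to 0.749 in control 2. Without control 1 the log2 difference was 0.083 in place of 0.15 for Mmp2 to Timp3, and 0.066 in place of 0.10 for Mmp2 to Timp2. The ratio of Mmp14 to Timp2 overlapped, at 0.290 ± 0.0116 in ecko and 0.301 ± 0.0334 in control skin (SD, n = 3 each, exact permutation p = 0.8).

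**Figure D4:**
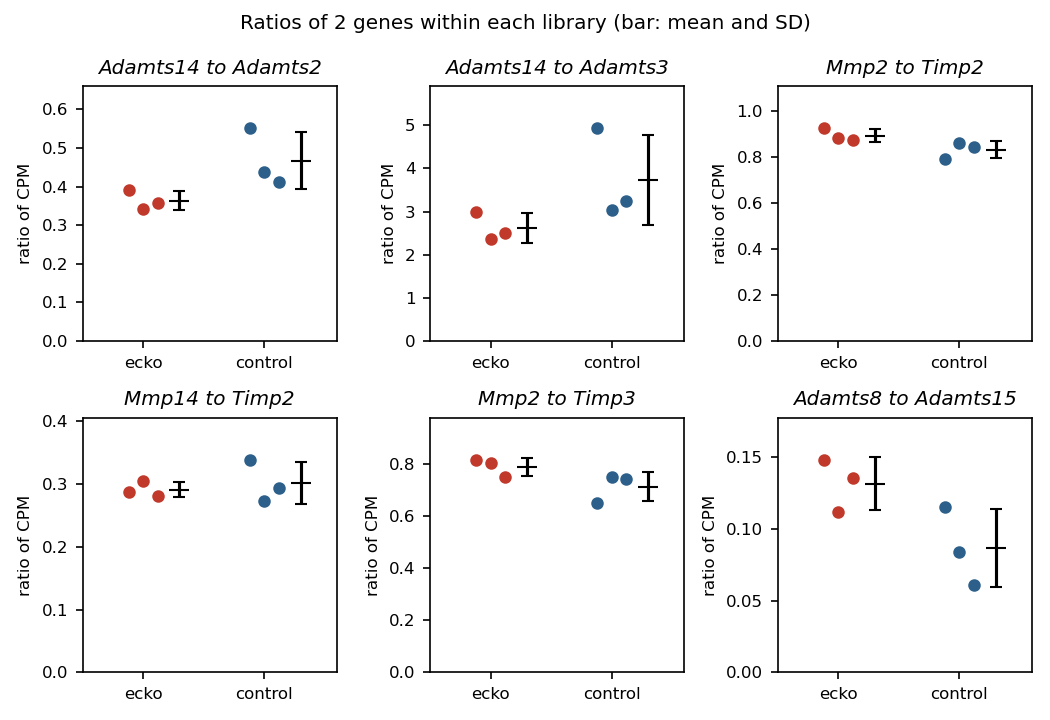
Ratio of the CPM of 2 genes within each library, ecko left and control right, with mean and SD. Adamts14 to Adamts2 and Adamts14 to Adamts3 are lower and Mmp2 to Timp2 and Mmp2 to Timp3 higher in every ecko library; the other two ratios overlap.

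The COMP-cleaving pair, named for cartilage oligomeric matrix protein, was below 0 and did not pass. Adamts12 had 45.4, 47.9 and 51.4 CPM in ecko 1 to 3, against 46.1, 61.1 and 52.7 CPM in controls 1 to 3 (log2 fold change -0.14, edgeR adjusted p = 0.548). Adamts7 had 7.24, 6.31 and 5.20 CPM in ecko 1 to 3, against 8.43, 6.32 and 8.22 CPM in controls 1 to 3 (log2 fold change -0.29, edgeR adjusted p = 0.427). Both overlapped between groups. The log2 fold change of Adamts12 was -0.035 without control 2 and -0.23 without control 1. The summed level of 12 cartilage markers was 1648 to 1676 CPM in ecko and 1720 to 2380 CPM in control libraries; its part in these values was not tested.

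The other ADAMTS genes include those tied to fibrillin microfibrils. Adamts10, mutated in Weill-Marchesani syndrome in humans, had 81.9, 71.7 and 76.1 CPM in ecko 1 to 3, against 78.7, 79.9 and 71.9 CPM in controls 1 to 3 (log2 fold change 0.00, 95% interval -0.16 to 0.15). Adamts6, a close relative of Adamts10, had 14.8, 15.7 and 16.9 CPM in ecko 1 to 3, against 10.9, 12.5 and 15.8 CPM in controls 1 to 3 (log2 fold change 0.27, SE 0.14, edgeR adjusted p = 0.380). Adamts17 had 20.3, 23.7 and 26.7 CPM in ecko 1 to 3, against 21.6, 28.9 and 25.5 CPM in controls 1 to 3 (log2 fold change -0.11, edgeR adjusted p = 0.760). All of them overlapped between groups, as did the low-level Adamts18 (0.01) and Adamts19 (-0.24).

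Of the 5 ADAMTS-like genes, 3 had fold changes below 0. Adamtsl4, whose product speeds fibrillin-1 deposition, had 60.8, 63.3 and 58.2 CPM in ecko 1 to 3, against 64.6, 68.4 and 68.3 CPM in controls 1 to 3, without overlap (log2 fold change -0.14, SE 0.06, edgeR adjusted p = 0.304). Adamtsl5 had 32.7, 31.9 and 31.5 CPM in ecko 1 to 3, against 35.7, 35.6 and 33.5 CPM in controls 1 to 3, also without overlap (log2 fold change -0.13, SE 0.06, edgeR adjusted p = 0.383). Adamtsl2, mutated in geleophysic dysplasia in humans, had 15.2, 15.8 and 17.1 CPM in ecko 1 to 3, against 17.8, 25.8 and 16.8 CPM in controls 1 to 3 (log2 fold change -0.33, SE 0.15, edgeR adjusted p = 0.351). Control 2 was its high library; the groups overlapped, and the log2 fold change without control 2 was -0.11. Adamtsl1 and Adamtsl3 had log2 fold changes of 0.16 and 0.07.

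Among the controls, 1 library was often lowest for these genes and another often highest. Control 1 was the lowest of the 6 libraries in 16 of the 41 members (39.0%), against 21.2% of all genes tested, and the highest in 8. Control 2 was the highest in 14 (34.1%), against 17.3% of all genes. The summed CPM of the 41 genes was 3792, 3797 and 4024 in ecko 1 to 3, against 3302, 4125 and 4066 in controls 1 to 3. Skeletal muscle markers had their highest sum in control 1, at 10063 CPM against 5905 to 7461 CPM in the other 5, and macrophage markers their lowest, at 710 CPM. Of the 10 fibroblast markers, 6 were lowest in control 1, among them Pdgfra at 108 CPM against 136 to 152 CPM in the other 5 and Dcn at 1313 CPM against 1597 to 1887 CPM; the other 4 were lowest in ecko 1. Their sum was 16691 CPM in control 1 and 15596 to 20071 CPM in the other 5. Col1a1 and Col1a2 made up most of it in every library, at 85.7% in control 1 and 81.7% to 84.5% in the other 5. The part of these differences in the member values was not tested.

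**Figure D5:**
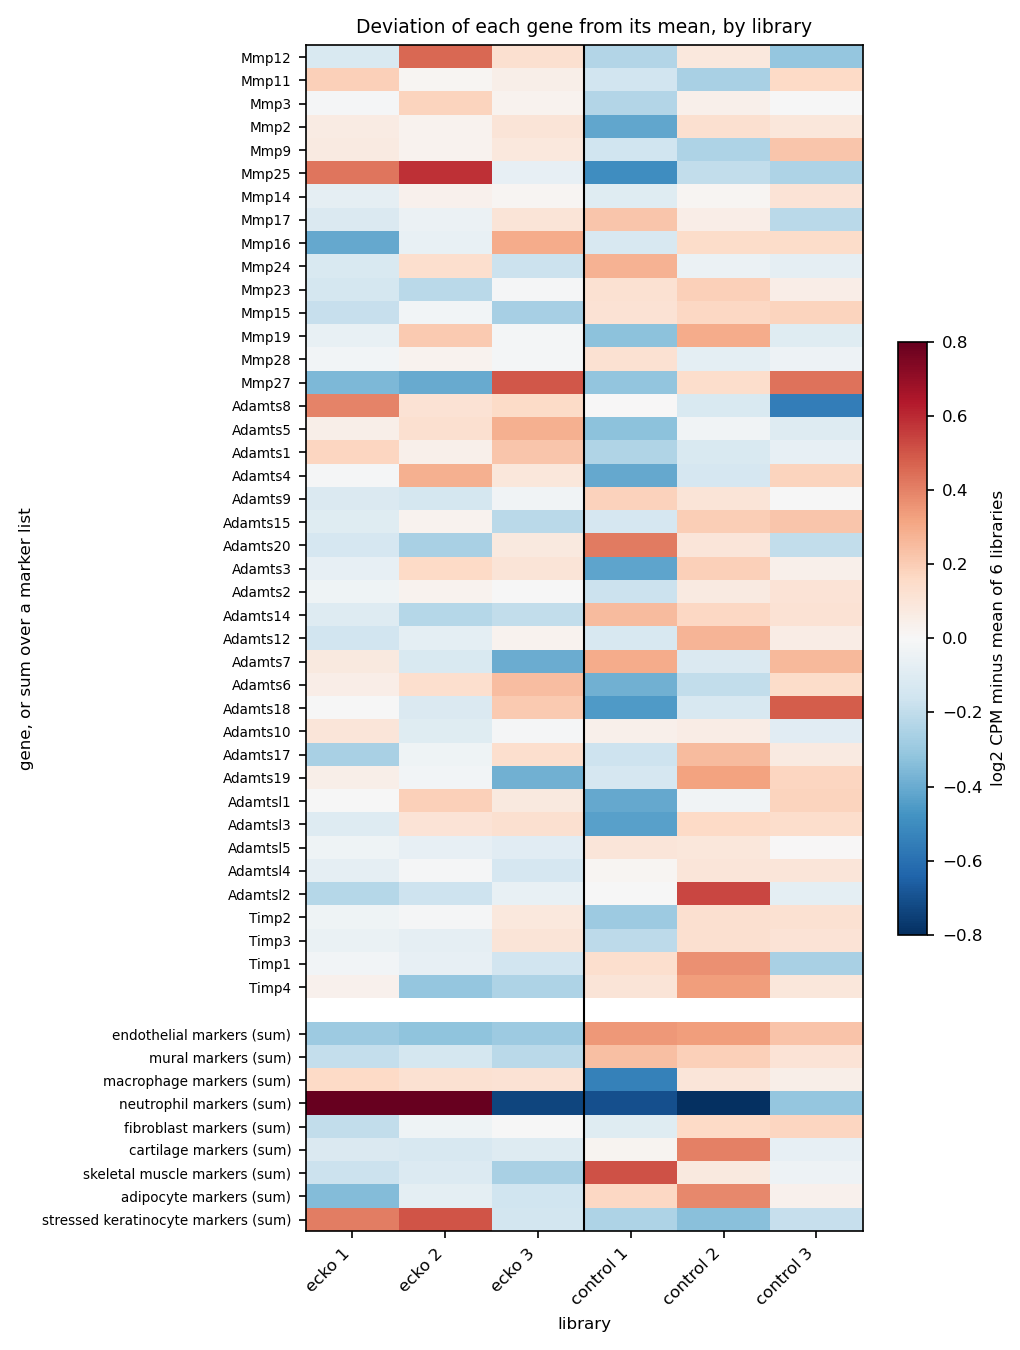
Log2 CPM of each gene minus its mean over the 6 libraries, ecko left of the line and control right, with summed marker lists below. The neutrophil sum passes both ends of the colour scale, the upper in ecko 1 and ecko 2 and the lower in control 2. Control 1 is blue (low) for Mmp2, Timp2, Timp3, Adamts3 and Adamtsl3, and its muscle markers are red (high).

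A further list held MMP activators, other regulators and some matrix proteins. Of its 19 tested genes, 1 fell (5.26%, against 1.08% of all genes) and 0 rose (against 0.686%). It was Sparcl1, which encodes the matrix protein hevin, at 196 CPM in ecko and 265 CPM in control skin (log2 fold change -0.44, SE 0.07, edgeR adjusted p = 0.0213). Whether hevin acts on MMPs in this skin was not tested. Next in order of p came Serpine2, an inhibitor of serine proteases (-0.32, edgeR adjusted p = 0.125). Plau, which encodes the plasminogen activator urokinase, and Furin, which activates membrane-type MMPs, had log2 fold changes of 0.01 and 0.02. Of 10 tested ADAM genes 0 passed, against 1.76% of all genes, and 2 had an unadjusted edgeR p under 0.05 (20%, against 15.4%). The closest was Adam8, a protease gene of leukocytes, at 34.8 CPM in ecko and 23.9 CPM in control skin (0.54, SE 0.12, edgeR adjusted p = 0.0527), followed by Adam9 (0.15, edgeR adjusted p = 0.313).

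Of 21 tested substrate and microfibril genes, 1 fell (4.76%, against 1.08% of all genes) and 0 rose (against 0.686%). It was Vwf, made by endothelial cells and cut by ADAMTS13 (-0.40, SE 0.08, edgeR adjusted p = 0.0343). Acan, the gene of aggrecan, had a log2 fold change of -0.30 (SE 0.12, edgeR adjusted p = 0.276), and Vcan, the gene of versican, of -0.08. The type I procollagen genes, on which the N-proteinases act, had log2 fold changes of -0.22 for Col1a1 (edgeR adjusted p = 0.373) and -0.18 for Col1a2 (edgeR adjusted p = 0.528). Adamts14, described above, passed where these collagen genes did not, and the difference between them was not tested.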

How the data were processed

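Expected counts (estimated read counts) per gene and library were deposited by the authors without scaling for depth, as the values show. Poly(A) RNA was captured and copied from random primers, per the labels' protocols, with no step named that keeps the strand. Tools listed in the submitters' processing notes, with no role, are RSEM 1.3.1, HISAT2 2.2.1 and Bowtie2 2.4.5, and the build is GRCm38.p6. RSEM shares out reads that match several genes by estimate, so close paralogs are less certain; 4 of the 41 (Adamts2, Adamts4, Mmp19 and Mmp28) held values that were not whole.

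Counts were rounded. filterByExpr (minimum count 10, by genotype) kept 14866 of 18422 genes, all 41 members among them; no member needed one group alone to meet the count rule, since all had 10 or more counts in all 6 libraries. Just inside the rule lay Adamts19 (20 to 32 counts) and just outside it Mmp13 (4 to 14). Libraries were scaled by TMM and tested over all genes with genotype as the only term (edgeR 4.0.16, limma 3.58.1 and DESeq2 1.42.0 in R 4.3.3). A standard error is the log2 fold change divided by the square root of F, and 95% intervals use the test's degrees of freedom. RPKM used exon lengths of GENCODE M21 (GRCm38), coordinates RefSeq GRCm38.p6. Figures used matplotlib.

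The members, the lists and the genes named (those that passed, the 12 smallest p, the top 2 per length of each role, all TIMPs, and of the other lists those that passed and the 2 smallest p) were chosen with earlier results of these data known. A few genes outside that rule, such as Adamts3, Mmp27, Mmp12, Plau, Furin, Vcan and the collagens, were added after their values were seen. On simulated counts of this comparison (10 sets, 200 changed genes, on average 14794.5 genes tested), 56.3% of changes of 0.5 log2 units, 92.8% of 1 unit and 99.7% of 2 units were recovered, and 7.58% of calls were false. No libraries were duplicates: within groups counts differed by 4.89 to 14.8 times the sampling variance.

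Alternatives were RLE and upper-quartile factors, DESeq2, limma-voom, no filter, 1 CPM in 3 libraries, a replicate block, a sex term, male libraries only, each library left out and a threshold of 0.1. Leaving libraries out of the ratios was chosen after seeing the data.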

Additional observations from a re-analysis of the deposited data

How the results depend on the processing

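Over 16 alternatives Adamts14 stayed below 0 in all, and passed in 10. Among these 10 is the threshold of 0.1, which reads the main fit at a looser limit and so could not lose the call. With the male libraries only, 0 members fell (log2 fold change -0.38, adjusted p = 0.0695), 174 genes were called over all genes, and Adamts2 and Mmp14 turned to 0.041 and 0.022. DESeq2 called 426 genes and 1 member higher (Adamts1), and a threshold of 0.1 gave 451 genes and the same 1 member higher, against 262 genes and 0 members higher in the main test. Leaving out 1 library at a time, the members that fell numbered 0 to 1 and all genes called 56 (without ecko 2) to 407 (without control 3). In those fits the log2 fold change was followed only for the 29 members named by the rule above, not for the other members. It crossed 0 for 8 of the 29: Adamts10 (-0.056 to 0.040), Adamts2 (-0.090 to 0.042), Mmp14 (-0.067 to 0.033), Mmp19 (-0.061 to 0.26), Mmp2 (-0.039 to 0.21), Mmp28 (-0.045 to 0.060), Timp2 (-0.11 to 0.087) and Timp3 (-0.12 to 0.037). None of these was called in any setting. Another 11 uncalled genes of the 29 kept their sign but differed from their value in the main test by over 1.5 times in at least 1 fit. They were Adamts12 (-0.23 to -0.035), Adamts15 (-0.30 to -0.13), Adamts17 (-0.21 to -0.0022), Adamts6 (0.16 to 0.43), Adamts7 (-0.41 to -0.18), Adamts8 (0.29 to 0.55), Adamtsl2 (-0.44 to -0.11), Mmp11 (0.073 to 0.29), Mmp3 (0.053 to 0.18), Mmp9 (0.016 to 0.26) and Timp1 (-0.33 to -0.029). The log2 difference in the ratio of Mmp14 to Timp2 ran from -0.12 to 0.039, above 0 without control 1 only. The replicate number as a block left 1 member lower (Adamts14, adjusted p = 0.0339), 0 higher and 192 genes called; same-numbered libraries correlated at r = 0.053, 0.048 and 0.17 after group means were removed, and control 2 correlated best with ecko 1, so the numbers were not taken as pairs. The causes were not tested. With 3 libraries a group, changes near 0.5 log2 units were often missed in simulation, and genes of few counts such as Mmp25 had wide intervals.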
